A study of Rattus norvegicus with 31 samples.

Results

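The genes described here encode the proteins of the cytosolic ribosome, measured in RNA from the left ventricle of rat hearts. They were taken by symbol from the RefSeq gene table of the series, as every symbol that is Rps or Rpl with a number and at most one of the letters a, x or y, together with Rpsa, Rplp0, Rplp1 and Rplp2, other than Rpl37, Rps18 and Rps20. This gave 70 of 19100 genes, of which 27 encode proteins of the small (40S) subunit and 43 proteins of the large (60S) subunit. In a second table, which holds 46063 genes that the authors assembled from their reads, 50 of the 70 members had a gene that carried their name and no other. Members were taken by a rule on names, which was set with earlier results of these data known. All rats were male, untreated and naive to drugs and behavioural tests. The panel held 12 strains of the HXB family (substrain Ipcv) and 9 strains of the BXH family (substrain Cub), which are inbred recombinants from reciprocal crosses of both progenitors. It had 1 library per strain, so the strain was the replicate. The progenitors were 4 rats of SHR/OlaIpcv, the spontaneously hypertensive strain, and 4 rats of BN-Lx/Cub, a Brown Norway congenic strain. SHR replicate 4 was sequenced again in later batches. Values were log2 expression levels without counts, so the sequencing depth is unknown and the number of strains or animals limits the precision.

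Ribosomal proteins surround and fold the ribosomal RNA of both subunits. The 40S subunit reads the mRNA, and the 60S subunit joins the amino acids and carries the stalk of Rplp0, Rplp1 and Rplp2, which recruits translation factors. Most of these proteins are needed in equal numbers, and the mRNAs of most begin with a tract of pyrimidines, the terminal oligopyrimidine (TOP) tract, through which mTOR signalling controls their translation together. Every cell expresses them, and in the heart protein synthesis rises during growth of the cardiomyocytes. Their genes have given rise to very many processed copies in mammalian genomes. RefSeq listed 988 such copies (pseudogenes or genes named as copies) for the 70 members, all 70 had at least 1 and the median was 14. Reads from a member and its copies may therefore have been split or shared by the counting, and all levels below carry that uncertainty.

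The sequences around the annotated start are shown for genes on which the comparisons turn, to set the letters there beside the pyrimidine tract. RefSeq promoter sequences (GRCr8) were matched for 56 of the 70 members. A run of 8 or more C or T within 20 bases of the start was present in 44 of 56 members (78.6%), against 5748 of 27457 promoters of all genes (20.9%), and the median longest run was 10 and 5 bases. Each line gives 40 bases before and 20 bases from the start, with the longest run of C or T that reaches into those 20 bases on either side in capitals. Rps15, Rpl14, Rplp1, Rplp0 and Rps3 were lower in HXB, Rps6, Rps3a and Rpl9 were higher in HXB, and Rpl7a was higher in SHR.
Rps15, chr7:10068096-10068155, minus strand: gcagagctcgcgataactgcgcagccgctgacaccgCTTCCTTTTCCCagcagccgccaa
Rpl14, chr8:129163580-129163639, plus strand: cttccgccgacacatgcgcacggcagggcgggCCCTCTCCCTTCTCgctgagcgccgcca
Rplp1, chr8:71290853-71290912, minus strand: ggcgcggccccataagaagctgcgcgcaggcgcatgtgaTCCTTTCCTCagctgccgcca
Rplp0, chr12:46718371-46718430, minus strand: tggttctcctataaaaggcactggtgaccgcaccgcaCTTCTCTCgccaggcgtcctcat
Rps3, chr1:163195757-163195816, minus strand: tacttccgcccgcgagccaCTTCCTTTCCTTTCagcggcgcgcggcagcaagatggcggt
Rps6, chr5:106420521-106420580, minus strand: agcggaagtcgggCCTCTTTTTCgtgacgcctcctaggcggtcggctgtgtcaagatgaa
Rps3a, chr2:173827023-173827082, minus strand: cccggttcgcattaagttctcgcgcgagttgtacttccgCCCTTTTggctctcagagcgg
Rpl9, chr14:43247550-43247609, plus strand: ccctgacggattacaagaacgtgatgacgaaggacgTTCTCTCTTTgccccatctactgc
Rpl7a, chr3:30637096-30637155, plus strand: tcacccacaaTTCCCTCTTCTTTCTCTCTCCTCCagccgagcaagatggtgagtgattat

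In Rps15, Rpl14, Rplp1, Rplp0, Rps3a and Rpl9 the run spans the annotated start, and in Rps3, Rps6 and Rpl7a it lies upstream of it. It is 7 bases long in Rps3a, under the minimum of 8, and 24 bases long in Rpl7a. The run did not set apart the members by direction. It was found in 20 of 25 members called lower in HXB, in 5 of 6 called higher and in 19 of 25 not called, with median lengths of 10, 10.5 and 12 bases. Other motifs were searched on both strands of the window of 250 bases before and 50 bases after the start. CCGGAAG, which holds the core bound by ETS factors such as GABP, was present in 32.1% of member promoters and 9.22% of all promoters. AAGATGGC, the core of the YY1 motif, was present in 7.14% of member promoters and 3.44% of all promoters. TATAAA was present in 10.7% and 14.3%. The first motif can overlap the second by its last 3 letters.

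Several measures moved with the groups and are given here once. Both later libraries of SHR replicate 4 in the RefSeq table differ only technically, if they are the same animal, and a score places each library along the difference between them. The technical score was −0.50 at the lowest, 0.35 at the median and 1.15 at the highest in HXB, against −0.99, −0.60 and 0.36 in BXH. The mean level of spike-in RNAs added to the samples was 6.63, 6.81 and 7.01 in HXB, against 6.78, 7.42 and 7.93 in BXH (lowest, median and highest, log2). The ranges overlapped for both measures, but most HXB libraries had the higher score and the lower spike-in level. In the assembled table the spike-in level was 6.37 to 6.82 in SHR and 6.95 to 7.85 in BN-Lx, with no overlap. There the score follows the difference between the later and the batch 1 library of SHR replicate 4. That batch 1 library is itself among the libraries compared. This score was −0.301 to 0.051 in SHR and 0.065 to 0.167 in BN-Lx, also with no overlap. SHR and BN-Lx libraries were all of batch 1, whereas 3 HXB and 3 BXH libraries were of batch 2 and 9 HXB and 6 BXH libraries of batch 3.

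Most members were abundant RNAs of the ventricle, with a mean level over 12 for 60 of 70 members and for 1056 of all 19100 genes. Their mean levels over strains ran from 7.65 for Rpl39, a small protein of the exit tunnel of the large subunit, to 14.78 for Rplp0, the base of the stalk. Per kilobase of the longest transcript named for the gene, not all members were ranked, and Rpl41, Rps14 and Rps29 were among those left out. Among the ranked members the highest log2 levels were those of Rplp1 (14.94), Rplp0 (14.65), Rps2 (14.62), Rps27 (14.45) and Rpl10 (14.24). The lowest log2 levels per kilobase among them were those of Rpl39 (9.04), Rpl36a (11.60), Rpl28 (11.96), Rpl27 (12.03) and Rpl22 (12.08). The low level of Rpl39 was not seen in another annotation of the same libraries. In the Ensembl table its mean level was 12.09, and its values over strains were unrelated to those in the RefSeq table (Spearman rho −0.00, 21 strains that share their libraries).

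Rpl3l, which replaces Rpl3 in ribosomes of heart and skeletal muscle, was not a member by its symbol. Its log2 level per kilobase of assembled exons was 12.85, against 11.42 for Rpl3, a 2.68-fold higher level, with exon lengths of 1391 and 1475 bases. Rpl3l exceeded Rpl3 in every one of the 21 strains, by 0.97 to 1.79 (log2 level, not per length). Its level was 13.08 at the lowest, 13.36 at the median and 13.57 at the highest in HXB strains, against 13.05, 13.35 and 13.62 in BXH strains. This difference did not pass the test (log2 fold change 0.00, limma adjusted p = 0.972), nor did that of Rpl3 (0.03, adjusted p = 0.644). Between the progenitors Rpl3l averaged 13.06 ± 0.13 in SHR and 12.90 ± 0.42 in BN-Lx (SD, n = 4 each, limma adjusted p = 0.548).

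The comparison of HXB with BXH asked whether strains from reciprocal crosses differ in these genes. Of the 70 members 41 passed the limma test at an adjusted p under 0.05, of which 9 were higher and 32 were lower in HXB. Over all genes 36.3% passed, 18.5% higher and 17.8% lower, a background that includes genes of low level. With only genes of a mean level over 5, 48.7% of 13676 genes passed, 24.2% higher and 24.5% lower. Of the members 42 of 70 then passed, 10 higher and 32 lower. The differences were small. The median log2 fold change was −0.08 over members and −0.01 over all genes, and called changes ranged from 0.14 to 1.39 in size. Both subunits took part, with 3 members higher and 13 lower of 27 in the 40S subunit and 6 higher and 19 lower of 43 in the 60S subunit. No member separated the families without overlap of their ranges. The share of all genes that did so is not given here, so this is no result about the members. The mean level of the 70 members per library was 12.58 to 12.90 in HXB (mean 12.75 ± 0.12) and 12.73 to 12.98 in BXH (12.84 ± 0.09), so these ranges overlapped too.

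**Figure D1:**
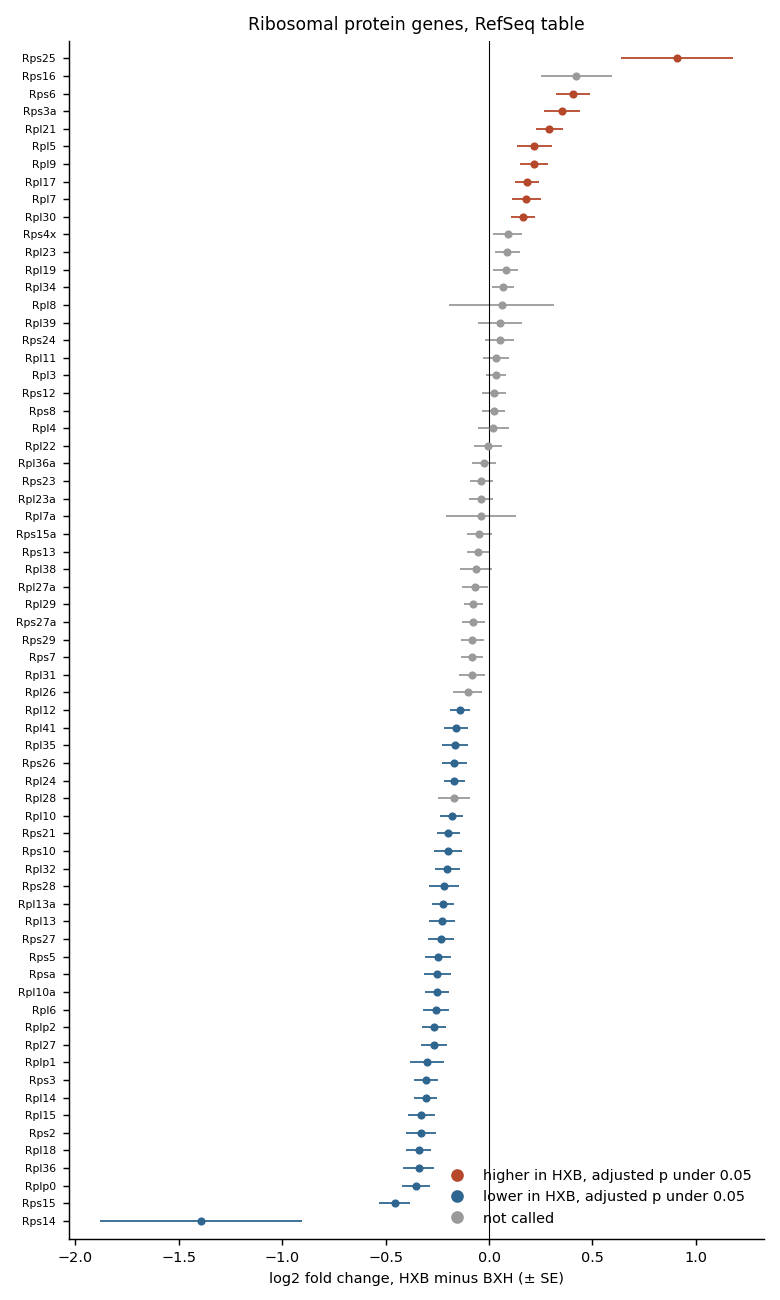
Log2 fold change of the members between the families (x axis, HXB minus BXH, bars are SE, 12 HXB and 9 BXH strains), with members down the page in order of their value. The members called higher in HXB stand at the top, those called lower at the bottom, and Rps14 and Rps25 have the largest changes and the widest bars.

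Of the small subunit, Rps15, which lies in the head of the 40S subunit near the decoding site, had the smallest p. Its level was 12.69 at the lowest, 13.04 at the median and 13.34 at the highest in HXB strains, against 13.18, 13.52 and 13.78 in BXH strains. It was lower in HXB, with a small overlap of the families (log2 fold change −0.46, SE 0.07, adjusted p = 0.00035 by limma). Rps3, at the mRNA entry channel and also a DNA repair protein, had levels of 13.15, 13.33 and 13.59 in HXB and 13.40, 13.66 and 13.85 in BXH (log2 fold change −0.31, SE 0.06, adjusted p = 0.00059). Rps2, its neighbour at the entry channel, had levels of 14.15, 14.54 and 14.76 in HXB and 14.55, 14.90 and 15.02 in BXH (−0.33, SE 0.07, adjusted p = 0.00154). Rpsa, the laminin receptor precursor, was also lower in HXB (−0.25, adjusted p = 0.00483), and so was Rps28 (−0.22, adjusted p = 0.0195).

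Of the large subunit, all 3 stalk proteins were lower in HXB. Rplp0 had levels of 14.33, 14.67 and 14.88 in HXB (lowest, median, highest) and 14.75, 15.04 and 15.32 in BXH, which gave −0.35 (SE 0.07, adjusted p = 0.000664 by limma). Rplp2 had levels of 12.50, 12.69 and 12.86 in HXB and 12.75, 12.95 and 13.18 in BXH (−0.27, SE 0.06, adjusted p = 0.00124). Rplp1 differed by −0.30 (SE 0.08, adjusted p = 0.00712). Further 60S proteins of smallest p were all lower in HXB. Rpl14 had levels of 12.58, 12.79 and 12.96 in HXB and 12.91, 13.14 and 13.28 in BXH (−0.31, SE 0.05, adjusted p = 0.000463). Rpl18 had levels of 12.55, 12.86 and 13.10 in HXB and 12.91, 13.18 and 13.42 in BXH (−0.34, SE 0.06, adjusted p = 0.000463). Rpl15 (12.78, 13.08 and 13.29 against 13.14, 13.45 and 13.52 in BXH) and Rpl36 (11.80, 12.20 and 12.44 against 12.25, 12.51 and 12.64 in BXH) differed by −0.33 and −0.34, with adjusted p of 0.000942 and 0.00154. In Rplp0, Rplp2, Rpl14, Rpl18, Rpl15 and Rpl36 the HXB median lay below the lowest BXH strain, but not in Rplp1 (13.89 against 13.81). Rpl41, the smallest ribosomal protein, differed by less (−0.16, adjusted p = 0.0388). Other members called lower in HXB, of both subunits, lay between −0.14 for Rpl12 and −0.27 for Rpl27.

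The 9 members higher in HXB included the S6 kinase target Rps6. Its level was 12.37 at the lowest, 12.89 at the median and 13.12 at the highest in HXB, against 12.08, 12.42 and 12.77 in BXH, a difference of 0.40 on the log2 scale (SE 0.08, adjusted p = 0.000996 by limma). Rps3a had levels of 13.06, 13.48 and 13.77 in HXB and 12.60, 13.14 and 13.40 in BXH (0.35, adjusted p = 0.00387). Rpl5, which binds Mdm2 together with Rpl11 and the small RNA of the large subunit, was just inside the threshold (0.22, adjusted p = 0.0498), and its call was lost in 7 of 10 alternatives, among them no batch term, no intensity trend and batch 3 alone. Rpl11 gave 0.03 (adjusted p = 0.708), and whether Rpl5 and Rpl11 differ was not tested. The others were Rpl21 (0.29), Rpl9 (0.22), Rpl17 (0.18), Rpl7 (0.18), Rpl30 (0.17) and Rps25, described below. Over assembled genes 1 of 50 members was higher in HXB, Rps6, and 28 were lower, against 15.1% and 12.8% of all. Rps3a, Rpl17, Rpl30 and Rps25 had assembled genes of their own but were not called higher there. Rpl5, Rpl7, Rpl9 and Rpl21 had no such gene. Among members with a known further role that did not pass, Rps27a, made as a fusion with ubiquitin, gave −0.08 (adjusted p = 0.297). Rps4x, the X-linked copy of Rps4, gave 0.09 (adjusted p = 0.339). The 29 members that did not pass lay between −0.17 for Rpl28 and 0.42 for Rps16.

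Across the members, the differences between the families went with the difference between both later libraries of SHR replicate 4. Over the 70 members, the log2 fold change of HXB over BXH and the difference of both later SHR replicate 4 libraries had a Pearson correlation of 0.67 and a Spearman correlation of 0.76, against 0.19 and 0.26 over all 19100 genes. These correlations are across genes, which share their libraries and are not independent replicates. Of the members called lower in HXB, 31 of 32 had the same sign in the library difference, and so had 8 of 9 called higher. The exception among those called higher was Rps25. With the technical score as a covariate 0 of 70 members passed limma (5 at an unadjusted p under 0.05), and 0 of all genes (1594 unadjusted). Rpl41, Rpl35, Rps28, Rplp1 and Rpsa, lower in HXB without this covariate, turned to differences of 0.01 to 0.10. The score was computed from these same libraries, over genes that include most members, and it moved with the family. Family and score therefore cannot be told apart in this fit. With the spike-in level as a covariate, an alternative added after seeing the data, it was 0 of 70 members (6 unadjusted) and 0 of all genes (2006 unadjusted). The spike-in level moved with the family as well. Without BXH12, BXH9 and HXB13, the strains of extreme score and also chosen afterwards, 18 of 70 members passed, 4 higher and 14 lower. Over all genes 15.6% then passed, 7.98% higher and 7.58% lower. Within batch 3 the count was 35 (5 higher, 30 lower), against 35.5% of all genes (18.5% higher, 17.0% lower). Within batch 2, with 3 strains a family, it was 0 (9 unadjusted, and 0 of all genes with 1561 unadjusted).

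**Figure D2:**
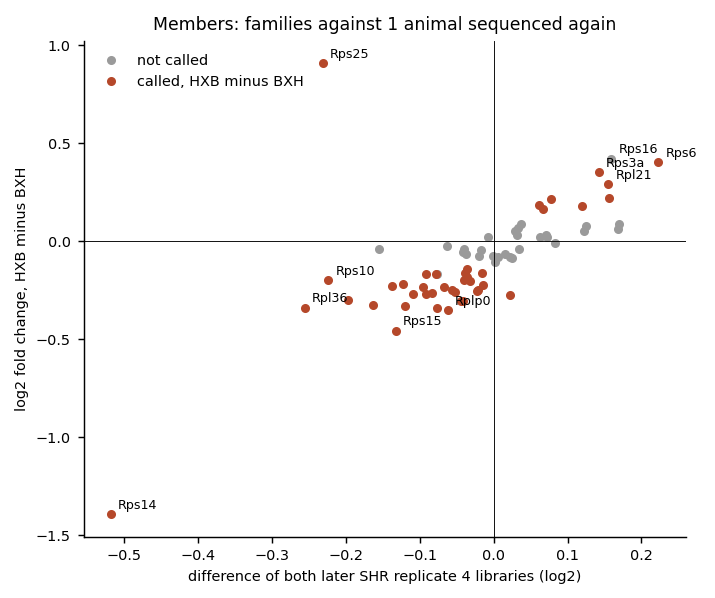
Each point is a member, placed by the difference between both later libraries of SHR replicate 4 (x axis, log2) and by its log2 fold change between the families (y axis, HXB minus BXH). Members low in one measure were mostly low in the other, with a Spearman correlation of 0.76 over 70 members, and Rps25 lies apart at the upper left.

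**Figure D3:**
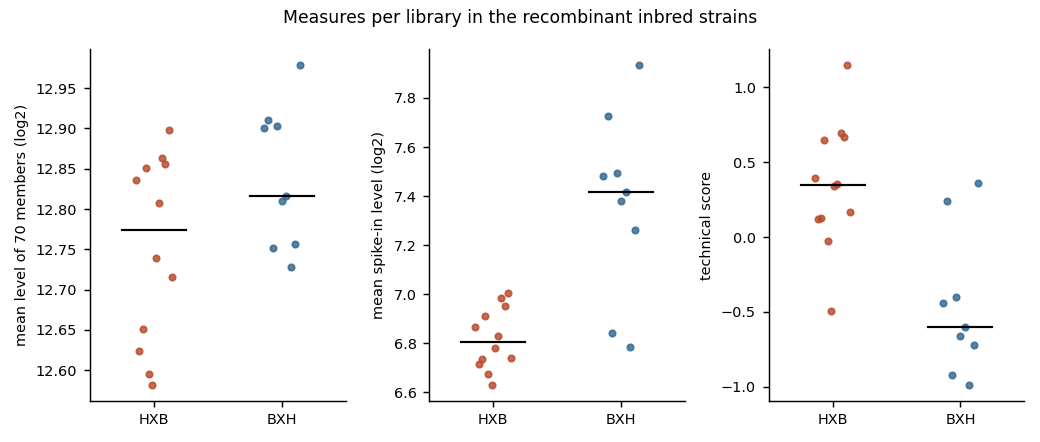
Mean level of the 70 members, mean spike-in level and technical score of each library (points), for 12 HXB and 9 BXH strains, with lines at the medians. The member means overlap widely, with medians of 12.77 in HXB and 12.82 in BXH, whereas 7 of 9 BXH libraries lie above every HXB library in spike-in level.

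Sequencing batch itself moved few genes. The coefficient of batch 3 over batch 2 passed limma in 0.0209% of genes and in 0 of 70 members (2 at an unadjusted p under 0.05). The members of smallest p were Rpl18 (0.16), Rps3 (0.15), Rpl21 (−0.14) and Rplp0 (0.14), all with an adjusted p of 1.00.

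Among strains the members varied about as much as other genes. The median SD over the 21 strains within batch was 0.183 for members and 0.179 for all genes, and 36 of 70 members lay above the median of all genes. For the 1056 genes with a mean level over 12 it was 0.172. The steadiest members were Rpl29 (SD 0.0997), Rpl3 (0.105) and Rps7 (0.12). The most variable were Rps14 (1.40), Rps25 (0.82), Rpl8 (0.62), Rps16 (0.47), Rpl7a (0.41) and Rps15 (0.29). Some strains were extreme for many members at once. HXB13 was the lowest strain for 21 members and HXB31 for 16, while BXH8 was the highest for 23 and HXB17 for 17.

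**Figure D4:**
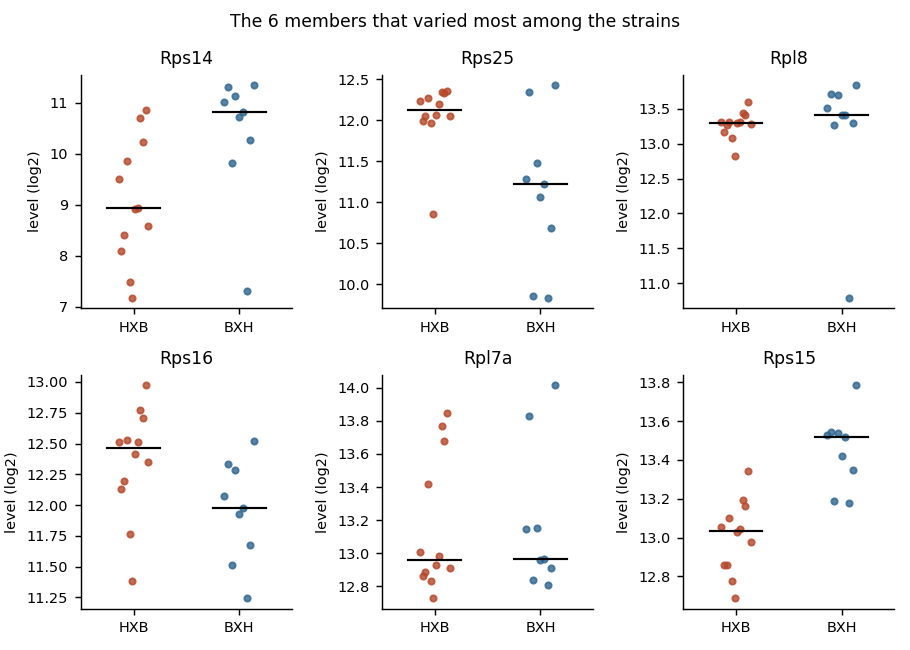
Level (y axis, log2) of the 6 members with the largest SD in each of 12 HXB and 9 BXH strains (points), with lines at the medians. One BXH strain lies far below the others for Rpl8 at 10.79, Rpl7a forms 2 sets of strains in both families, and Rps14 and Rps25 are spread over more than 2 log2 units.

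Rps14, a protein of the platform of the 40S subunit, had the largest change between the families, and its level and spread depended on the annotation. In the RefSeq table its level was 7.18 at the lowest, 8.93 at the median and 10.86 at the highest in HXB, against 7.32, 10.82 and 11.35 in BXH (−1.39, SE 0.49, limma adjusted p = 0.0291). In the Ensembl table its level was 13.23, 13.50 and 13.67 in HXB and 13.45, 13.74 and 13.96 in BXH. Its mean over strains was thus 13.57 in the Ensembl table and 9.64 in the RefSeq table, and its SD was 0.20 and 1.40. The Spearman rho between these tables was 0.66 over 21 strains. The assembled gene followed the RefSeq gene more closely (rho 0.99), with a mean of 9.89. The family call was kept in the Ensembl table and over assembled genes. It was lost in 5 of 12 alternatives, among them those without BXH2 and without the 3 strains of extreme score.

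Rps25, a 40S protein used in initiation at some viral internal ribosome entry sites, had a wide range in both tables, but not the same order of strains. In the RefSeq table its level was 10.85 at the lowest, 12.13 at the median and 12.35 at the highest in HXB, against 9.84, 11.22 and 12.43 in BXH (0.91, SE 0.27, limma adjusted p = 0.012). BXH5 and BXH6 were lowest, at 9.85 and 9.84, and the next strain was at 10.69. In the Ensembl table its level was 10.49, 11.96 and 12.23 in HXB and 10.33, 10.56 and 12.23 in BXH. Most HXB strains were high in both. BXH strains were spread over the range in the RefSeq table. In the Ensembl table BXH10, BXH2 and BXH9 were at 12.06 to 12.23 and the other BXH strains at 10.33 to 10.57. The Spearman rho between these tables was 0.58 over 21 strains, and BXH2 was at 10.69 in the RefSeq table and 12.23 in the Ensembl table. The family call was lost over assembled genes (0.76, adjusted p = 0.0528).

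Rpl8, a protein close to the peptidyl transferase centre, was set apart by one strain. BXH2 had a level of 10.79, whereas the other 8 BXH strains had 13.27 at the lowest, 13.47 at the median and 13.84 at the highest, and HXB strains had 12.83, 13.30 and 13.60. With all strains the families differed by 0.06 (SE 0.25, limma adjusted p = 0.875). Without BXH2, a fit added after seeing the data, it was −0.27 (SE 0.08, adjusted p = 0.0112), and Rpl8 was lower in HXB. The count of called members was then 38 of 70, with 9 higher and 29 lower, against 34.8% of all genes (17.8% higher, 17.0% lower).

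Rpl7a, a 60S protein whose gene also carries small nucleolar RNAs in its introns, formed 2 sets of strains. HXB1, HXB21, HXB31, HXB5, BXH10 and BXH11 had levels of 13.42 to 14.01, and the other 15 strains had 12.73 to 13.15. Both families had strains in each set, and the family difference was −0.04 (SE 0.17, limma adjusted p = 0.875). The Ensembl table did not show these sets. There HXB31 of the higher set was the lowest strain and BXH8 of the lower set the highest. The Ensembl level of Rpl7a was 13.79 at the lowest, 14.02 at the median and 14.16 at the highest in HXB. In BXH it was 14.02, 14.20 and 14.36. The SD was 0.16, and the Spearman rho with the RefSeq values was 0.30. Rps16, a protein of the head of the 40S subunit, gave 0.42 between the families (SE 0.17, adjusted p = 0.0565).

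A mixture model gave more than 1 mode for 10 of 70 members (14.3%), 6 with 2 modes and 4 with 3, against 15.6% of all genes. A share near that of all genes is no result about the members. The largest gains in the Bayesian information criterion over a single mode included those of Rpl8 (27.4), Rpl7a (11.4), Rps28 (4.82), Rpl41 (3.59), Rpl17 (2.08), Rps14 (1.95) and Rps25 (1.56).

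The other annotation tables bear on most members little and on some a great deal. Over the 21 strains the median Spearman rho between the Ensembl and the RefSeq level was 0.99 over 60 members in both, but 9 members were below 0.5. Among these were Rpl31, Rpl39, Rpl7a, Rpl9, Rps10, Rps12, Rps27a and Rps4x. Rpl9 had Ensembl levels of 6.83 at the lowest, 7.18 at the median and 12.51 at the highest in HXB, against 6.77, 10.94 and 11.998 in BXH. Rps3a had Ensembl levels of 9.72, 12.89 and 13.28 in HXB, against 9.72, 10.02 and 12.68 in BXH. The SD was 2.43 for Rpl9 and 1.47 for Rps3a, larger than in the RefSeq table for both. Between the assembled genes and the RefSeq genes the median rho was 0.83 over 50 members, and 5 were below 0.5, Rps10, Rpl4, Rps4x and Rps29 among them.

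The members moved together over the strains. The median Pearson correlation over 2415 pairs was 0.45 (Spearman 0.45), against −0.00 for pairs of all genes, and with batch and family removed it was 0.51. With the technical score removed as well it was 0.61. Each value rests on 21 strains, and the members share libraries and high levels. The members most like the mean of the others were Rpl32 (Pearson 0.92, Spearman 0.91), Rpl41 (0.92), Rpl35 (0.91), Rpl6 (0.91) and Rpl24 (0.91). The least like were Rps16 (−0.50), Rps25 (−0.29), Rps6 (−0.21), Rpl21 (−0.09) and Rpl17 (−0.08). Of these 5, Rps25, Rps6, Rpl21 and Rpl17 were among those called higher in HXB. The genes outside the members most like their mean were Rps19l2 (0.93), Rps9l1 (0.92), Rtraf (0.91), Nedd8 (0.91) and Tpi1 (0.91).

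SHR was set against BN-Lx to ask which of these genes differ between the progenitors, over the 50 members with an assembled gene of their own. Of these 5 passed limma at an adjusted p under 0.05 (18 at an unadjusted p under 0.05), 1 higher and 4 lower in SHR, against 14.3% of all assembled genes, 7.38% higher and 6.95% lower. The members' count was thus not above that background, but without BN-Lx replicate 2 it was, as given below. With only genes of a mean level over 5, 6 of 48 members passed, against 25.4% of 19565 genes. Of the 50 fold changes 39 were below 0, called or not, with a median of −0.18, against 0.01 over all genes. Groups did not overlap for 3 of 50 members, against 20.6% of all assembled genes. The mean level of the 50 members per library was 11.76 to 12.05 in SHR (11.91 ± 0.13) and 11.93 to 12.28 in BN-Lx (12.09 ± 0.16, SD, n = 4 each), a difference of −0.18 with overlapping ranges.

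Rpl7a was the member higher in SHR. Its assembled gene (rn7, chr3:10239026-10241703, plus strand, 11 exons) had levels of 13.53, 13.44, 13.31 and 13.35 in SHR replicates 1 to 4, against 12.75, 12.35, 12.72 and 12.49 in BN-Lx replicates 1 to 4. Every SHR library was above every BN-Lx library, and the later library of SHR replicate 4, at 12.95, was also above them. It differed by 0.83 (SE 0.09, adjusted p = 7.47e-05 by limma), a 1.78-fold higher level, and it passed in all 17 alternatives, with values of 0.69 to 0.89. All of these used the same assembled gene. Over the strains that gene followed the RefSeq gene (Spearman rho 0.90), which the Ensembl gene did not (rho 0.30 with the RefSeq values). Whether the difference between the progenitors depends on the annotation was not tested.

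The 4 members lower in SHR were of both subunits. Over the 45 members whose assembled gene followed the RefSeq gene over the strains (Spearman rho of at least 0.5), an alternative added after seeing the data, 1 was higher and 3 were lower. Rpl14 (rn7, chr8:120286035-120288912, plus strand) had levels of 12.53, 12.56, 12.39 and 12.29 in SHR, against 13.11, 12.67, 13.02 and 12.76 in BN-Lx, without overlap (−0.44, SE 0.10, limma adjusted p = 0.0112). It was lower in HXB too, but did not pass between the progenitors without the intensity trend (adjusted p = 0.0887). It also did not pass with the technical score as a covariate (adjusted p = 0.282), a score that itself separates the progenitors without overlap.

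Rplp1 and Rps25 passed with overlapping groups. Rplp1 (rn7, chr8:62389457-62395341, minus strand) had levels of 13.65, 13.47, 13.32 and 13.39 in SHR, against 14.14, 13.60, 14.05 and 13.83 in BN-Lx (−0.45, SE 0.11, adjusted p = 0.0176 by limma). Rps25 (rn7, chr8:44733623-44735999, plus strand) had levels of 11.45, 11.51, 11.22 and 11.41 in SHR, against 12.23, 11.51, 12.19 and 11.80 in BN-Lx (−0.54, SE 0.14, adjusted p = 0.0221). BN-Lx replicate 2 was the lowest BN-Lx library for both. Each of these calls was lost in 8 of 17 alternatives. Without BN-Lx replicate 2 the count of called members was 14 of 50 (1 higher, 13 lower), against 13.3% of all genes (6.91% higher, 6.37% lower). It was 3 without BN-Lx replicate 1, BN-Lx replicate 3, SHR replicate 3 or SHR replicate 4, against 10.7%, 10.5%, 11.3% and 9.50% of all genes. With the spike-in level as a covariate, added after seeing the data, it was 4 (2 higher, 2 lower), and with the technical score 2 (1 higher, 1 lower). Over all genes 4.01% and 3.12% passed with these covariates.

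**Figure D5:**
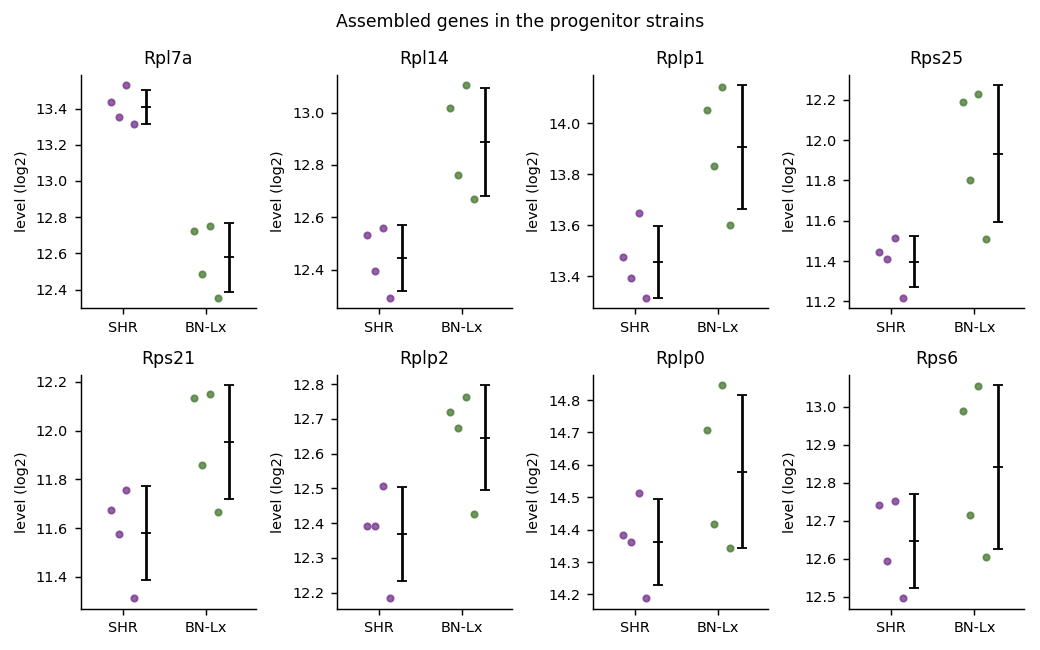
Level (y axis, log2) of 8 assembled genes in 4 SHR and 4 BN-Lx rats (points), with the mean and SD beside them. SHR lies above BN-Lx without overlap for Rpl7a and below it without overlap for Rpl14, and the groups overlap for Rplp1, Rps25, Rps21, Rplp2, Rplp0 and Rps6.

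Just outside the threshold were Rps21 (−0.37, limma adjusted p = 0.0565) and the stalk protein Rplp2. Rplp2 had levels of 12.51, 12.39, 12.18 and 12.39 in SHR, against 12.76, 12.43, 12.72 and 12.67 in BN-Lx (−0.28, adjusted p = 0.0592). Rplp0 gave −0.22 (SE 0.11, adjusted p = 0.209), Rps6 −0.20 (adjusted p = 0.233), Rps27a −0.16 (adjusted p = 0.413), Rpl11 −0.11 (adjusted p = 0.542), Rpsa 0.12 (adjusted p = 0.450), Rps4x 0.04 (adjusted p = 0.929) and Rpl3 0.01 (adjusted p = 0.941). Over the strains the assembled genes named Rps27a and Rps4x averaged 7.71 and 8.51, against 13.31 and 13.54 in the RefSeq table, so their values need not be those of these members. The highest fold changes after Rpl7a were those of Rpl28 (0.33, adjusted p = 0.132) and Rps16 (0.32, adjusted p = 0.363), and among the lowest was that of Rps10 (−1.63, SE 0.70, adjusted p = 0.146). The assembled gene named Rps10 is a single exon on chromosome 6 (rn7, chr6:72030872-72031441), whereas RefSeq places Rps10 on chromosome 20.

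Other genes of the translation machinery are given by lists chosen with earlier results of these data known. For each list the shares over all genes were 18.5% higher and 17.8% lower in HXB, and 7.38% higher and 6.95% lower in SHR. With the technical score or the spike-in level as a covariate 0 of all genes passed between the families, and so 0 of each list. Mitochondrial ribosomal proteins, which make the separate ribosome of mitochondria, had 5 of 75 genes called higher and 33 lower in HXB, with a median of −0.12. Examples were Mrpl14 (−0.37), Mrpl28 (−0.36), Mrps11 (−0.30) and Mrpl47 (0.35). In SHR 2 of 55 were called higher and 9 lower, with a median of −0.20, among them Mrpl4 (−1.02, limma adjusted p = 1.28e-06), Mrps35 (−0.65), Mrpl19 (−0.52) and Mrps2 (0.47). Of elongation factors and other TOP mRNAs 6 of 20 were higher and 6 lower in HXB, such as the RNA-binding protein gene Hnrnpa1 (0.42), Nap1l1 (0.36), Eif4a2 (0.34) and Eef1d (−0.28). Between the progenitors 1 of 14 was higher and 1 lower in SHR, Hnrnpa1 (0.43, adjusted p = 0.0237) and the elongation factor gene Eef1a1 (−0.61, adjusted p = 0.0237).

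Ribosome biogenesis factors were called in both directions. In HXB 10 of 33 were higher and 10 lower, such as the nucleolar protein gene Ncl (0.48), Tsr1 (0.34), and Nop10 and Nhp2 of the pseudouridylation particle (both −0.34). In SHR 1 of 29 was higher, Ubtf (0.32), a transcription factor of the ribosomal RNA genes, and 2 were lower, Wdr12 (−0.34) and Nop10 (−0.33). Of genes that control growth and the mRNAs of ribosomal proteins 9 of 26 were higher and 3 lower in HXB. They included Pdcd4 (0.39), an inhibitor of the helicase Eif4a, the mRNA-binding protein genes Tia1 (0.42) and Larp4 (0.37), and Gabpa (0.36). In SHR Deptor (0.55), an inhibitor of mTOR, and Mycn (0.59) were higher and 0 of 20 lower. Of 11 further ribosomal proteins and fusions outside the symbol rule 2 were lower in HXB, among them Rack1 (−0.25, limma adjusted p = 0.00254), a scaffold on the 40S subunit. Of 8 between the progenitors Rpl39l was higher in SHR (1.77, adjusted p = 0.00921), at mean levels of 2.96 in SHR and 1.19 in BN-Lx, low beside the members.

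Markers of several cell types of the ventricle also differed between groups, where 36.3% of all genes passed between the families and 14.3% between the progenitors. In bulk RNA, fewer cells of a type and less RNA per cell cannot be told apart. Summed cardiomyocyte markers had levels of 21.33 to 21.82 in HXB and 21.54 to 21.94 in BXH (log2), the highest of the marker lists, with 1 of 10 called higher and 4 lower in HXB. Macrophage markers were 12.89 to 13.37 in HXB and 13.15 to 13.59 in BXH, with 5 of 8 lower, and mesothelial markers 9.69 to 10.22 in HXB and 9.85 to 10.74 in BXH, with 4 of 6 lower. Endothelial markers had 3 of 9 higher and 3 lower (15.13 to 15.47 in HXB, 15.30 to 15.58 in BXH). In SHR 4 of 7 macrophage markers were lower (12.65 to 12.97 in SHR, 13.01 to 13.17 in BN-Lx), 4 of 5 mesothelial markers were lower (10.04 to 10.30 in SHR, 10.37 to 10.61 in BN-Lx) and 5 of 8 endothelial markers higher and 1 lower (15.75 to 15.90 in SHR, 15.74 to 15.79 in BN-Lx). Of pericyte and smooth muscle markers 4 of 8 were higher (14.52 to 14.59 in SHR, 14.32 to 14.41 in BN-Lx) and 2 of 8 cardiomyocyte markers were lower (20.43 to 20.62 in SHR, 20.55 to 20.76 in BN-Lx). In HXB 1 of 8 fibroblast and 2 of 9 pericyte and smooth muscle markers were higher, 2 of 11 lymphocyte markers were lower, and 0 of 7 erythroid markers (2 at an unadjusted p under 0.05 by limma) and 0 of 4 atrial markers (1 unadjusted) passed. In SHR 1 of 8 fibroblast, 1 of 10 lymphocyte and 1 of 4 atrial markers were higher and as many of each lower, and 0 of 5 erythroid markers passed (2 unadjusted). The part of these cell types in the differences of the members was not tested.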

How the data were processed

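Total RNA depleted of ribosomal RNA was sequenced from left ventricle with a stranded kit. The values deposited by the authors are log2 expression levels. No source used here gives the transformation or any counts, so depth is unknown. The submitters' processing notes list, without roles or order, the build rn7, RSEM 1.3.1, StringTie 1.3.5, HISAT2 2.1.0, Bowtie2 2.3.4.3, DESeq2 and cutadapt 1.9.1. The families were compared in the RefSeq table of 19100 genes, and the progenitors in the table of 46063 assembled genes, where a member was the assembled gene that carried its name alone. For 20 members no such gene was found, and for 9 of these the name occurred only together with others. Spike-in RNAs were kept out of the tests.

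Fits over all genes used limma 3.58.1 in R 4.3.3 (two-sided, prior variance following the mean level, Benjamini-Hochberg adjustment, threshold 0.05). The 8 progenitor libraries of batch 1 entered without covariates, and the 21 strains with batch as a covariate. Modes were fitted with mclust 6.1.1 (up to 3 components, equal variance, after centring within batch). For the technical score, the deviation of a library from the mean of the libraries compared was regressed over genes (mean over 8) on a difference between SHR replicate 4 libraries, and the slope taken. The difference was that of both later libraries for the families, and of the later and the batch 1 library for the progenitors. Level per length is the log2 level per kilobase of the longest transcript carrying the name, except Rpl3 and Rpl3l. It was not given for every member. Python 3.11.15 with numpy 2.4.6, pandas 2.3.3, scipy 1.17.1 and matplotlib 3.10.9 was used for summaries and figures, and fits were tested on simulated data. Whether rats shared a litter is not in the labels, and p-values cover the spread among the rats or strains sampled.

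Members, lists and tests were chosen with earlier results of these data known. Named were all called members up to the 15 (progenitors) or 10 (families) of smallest p, the 3 highest and lowest fold changes of the progenitors, the 4 of smallest p for batch, the 6 largest and 3 smallest SD, the 5 most and least alike, the 8 largest gains in modes, the 5 highest and lowest levels per length, up to 4 called genes of every other list, and a set of members with known roles, with further called members added after their values were seen. Rps9, Rps19 and Rpl35a were not analysed here. A few genes that the rule takes are counted but not reported here by name. Alternatives covered the tables, normalization, trend, low values, covariates, batches and left-out libraries. The spike-in covariate, members with a rho of at least 0.5, and the fits without the 3 strains of extreme score or without BXH2 were added after seeing the data.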

Additional observations from a re-analysis of the deposited data

Results flagged for a closer look

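In groups of 4 to 10 samples, 5 of 74 values tested had one sample whose gap to the others was large against the range of its group, where chance gives about 1 in 20. In the BXH family Rpl8 was at 10.8 in BXH2, the lowest strain. There Rps14 was at 7.32 in BXH10, also the lowest of that family. In BXH8, which had the highest level for 23 members, Rps7 was at 13.3 and Rpl24 at 13.5. Among the SHR libraries of batch 1 the mean spike-in level of replicate 2 was lowest, at 6.37.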

How the results depend on the processing

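The number of members called between HXB and BXH, 41 of 70, was 0 within batch 2, 0 with the technical score and 0 with the spike-in level as a covariate, and 18 without the 3 strains of extreme score. Over all genes 36.3% passed, against 0% within batch 2 and with either covariate, and 15.6% without those strains. It was 34 of 60 members in the Ensembl table, with 6 higher and 28 lower, against 38.5% of all its genes. Over assembled genes it was 29 of 50, with 1 higher and 28 lower, against 27.9% of all. Between SHR and BN-Lx, 5 of 50 members passed, against 3 with all groups and batch in 1 fit, 2 without the trend, 2 with the technical score, and 3 to 14 with 1 animal left out (14 without BN-Lx replicate 2). Over all genes 14.3% passed, against 8.50% with all groups, 10.7% without the trend and 3.12% with the technical score. With 1 animal left out it was 9.50% to 13.3% of all genes. With SHR and BN-Lx of the same number as a replicate block 5 members and 11.8% of all genes passed. Same-numbered animals did not deviate together (correlations of −0.12 to 0.08), and numbers in the families are in accession order only.

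Single members turned direction in 9 cases. With the technical score they were Rpl41 (0.0207), Rpl35 (0.0172), Rps28 (0.0953), Rplp1 (0.0233) and Rpsa (0.00553), none of which passed. Rps28 also gave 0.0383 within batch 2 and 0.0143 with the spike-in level. Rpl8 without BXH2 gave −0.27, and Rps27a in the Ensembl table gave 0.21 (limma adjusted p = 0.0427). Beyond the left-out strain for Rpl8, the cause was not tested. For the named members between HXB and BXH, 270 results kept direction and side of the threshold, 84 lost the call and 5 gained it, and between SHR and BN-Lx 231 kept both, 18 lost the call and 5 gained it. Without counts, the smallest difference that depth would allow is unknown. With 1 library per strain, variation within a strain could not be separated from that between strains.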
